A study of Mus musculus with 8 samples.

Results

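The nuclei described here are 1148 of 59446 liver nuclei, 1.93%, that carried RNA of 4 genes used to mark inflammatory monocytes: Ccr2, F13a1, Ly6c2 and Chil3. They come from single-nucleus RNA sequencing of the livers of 8 male DIAMOND mice, a 129A1/SvIm and C57BL/6J cross that develops fatty liver and liver tumours when fed a diet rich in fat and sugar. A nucleus was taken if it had at least 300 detected genes, at least 2 unique molecular identifiers (UMIs, one per captured RNA molecule) summed over the 4 genes, and 0 UMIs of Clec4f, Timd4, Gpnmb, Flt3, Mpo and Elane, which mark Kupffer cells, lipid-laden macrophages, dendritic cells and granulocyte progenitors. It also had to hold no more than 1 UMI over Stab2, Reln, Pkhd1, Cd3e and Pax5, which mark endothelial cells, stellate cells, cholangiocytes, T cells and B cells. The choice therefore rests on measured values of these 15 genes, and their levels are given as a description.

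All mice received a high-fat diet with fructose and glucose in the drinking water. In the WD tumour group (3 mice) this Western diet was kept for 48 weeks and tumours formed. In the RD groups it was replaced by standard chow after 36 weeks: RD tumour mice had tumours, and in the 3 RD no tumour mice none was detected. The sample labels place the end of the study at 48 weeks of age, whereas by the series text feeding began when the mice were 2 months old and lasted 48 weeks, so the age at sampling is uncertain. One library, RD tumour 1, was deposited with exactly 20000 barcodes and lies outside the rule, which leaves RD tumour 2 alone in its group, with values but no test. No untreated or chow-only mouse is among the samples, and all groups share the Western diet of the first 36 weeks.

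Monocytes are blood leukocytes made in the bone marrow. The inflammatory kind carries the chemokine receptor CCR2, leaves the marrow along gradients of its ligand CCL2, enters injured liver and can mature there into macrophages that replace or join the resident Kupffer cells. In fatty liver disease such recruited cells are known to adopt a lipid-associated macrophage state, and neutrophils, which develop from shared marrow progenitors, often accumulate with them. Of the 4 genes, Ccr2 encodes that receptor, F13a1 encodes the coagulation factor XIII A chain, Ly6c2 a surface antigen of inflammatory monocytes that some lymphocytes also carry, and Chil3 a chitinase-like secreted protein made by monocytes, alternatively activated macrophages and developing neutrophils.

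The nuclei were spread very unevenly over the mice. RD no tumour 1 held 877, or 76.4% of them. The other 6 mice held 39 (RD no tumour 2), 16 (RD no tumour 3), 44 (RD tumour 2), 26 (WD tumour 1), 104 (WD tumour 2) and 42 (WD tumour 3). Because 1 library dominates every pooled value, results are given with and without it. Total depth was 17948627 to 32537971 UMIs per library in the 7 libraries. The chosen nuclei of RD no tumour 3 summed to 39126 UMIs and those of RD no tumour 1 to 2025907. Levels are given as CPM, counts scaled to a total of 1000000 over the summed nuclei of a mouse, and 1 UMI was worth 25.6 CPM in the first of these mice and 0.494 CPM in the second. Between 0.124% and 0.365% of the barcodes of the smaller library were shared in each of 21 pairs of libraries, and no chosen nucleus had a barcode shared with a chosen nucleus of another mouse.

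As a share of nuclei with at least 300 genes, the chosen nuclei made up 8.54% in RD no tumour 1 (exact 95% binomial interval 8.002 to 9.09%), 0.645% in RD no tumour 2 (0.459 to 0.880%) and 0.155% in RD no tumour 3 (0.0884 to 0.251%). The share was 0.424% in RD tumour 2 (0.308 to 0.569%). It was 0.403% in WD tumour 1 (0.263 to 0.589%), 1.47% in WD tumour 2 (1.20 to 1.78%) and 0.473% in WD tumour 3 (0.341 to 0.639%). The intervals cover counting error only. The RD no tumour group thus held both the highest and the lowest mouse, and the WD tumour mice fell between them.

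Free RNA in the suspension can place UMIs of these genes in nuclei that do not transcribe them, and the chosen nuclei were compared with nuclei that should lack them. Endothelial and stellate nuclei, chosen by at least 2 UMIs of Stab2 or of Reln, carried 2 or more UMIs of the 4 genes in 7.70% of nuclei in RD no tumour 1 and in 2.28% in WD tumour 2. In the other 5 mice this share lay between 0.145% (RD no tumour 3) and 0.745% (RD no tumour 2). Median depth was 1219 to 2574 UMIs per nucleus for the chosen nuclei and 1332.5 to 3072 for the endothelial and stellate nuclei. Among nuclei that met the exclusion criteria, those that passed were 2.93% over the 7 mice against 1.99% of endothelial and stellate nuclei, a ratio of 1.47. Without RD no tumour 1 the shares were 0.828% and 0.717%, a ratio of 1.15. Per mouse the ratio was 3.18 in RD tumour 2, 1.77, 1.37 and 1.53 in RD no tumour 1 to 3, 1.39 in WD tumour 1, 0.990 in WD tumour 2 and 1.05 in WD tumour 3. Outside RD no tumour 1 and WD tumour 2 they rested on 2 to 7 endothelial and stellate nuclei that passed. Only 2 passed in RD tumour 2 and 2 in RD no tumour 3. By these ratios, the share in WD tumour 2 at the rule's threshold was at the level of nuclei that should lack the genes, and that in WD tumour 3 was hardly above it. In WD tumour 2 the endothelial and stellate nuclei were deep, with a median of 3072 UMIs against 1812.5 in all nuclei outside the chosen set. The effect of depth on the ratio was not tested.

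**Figure D1:**
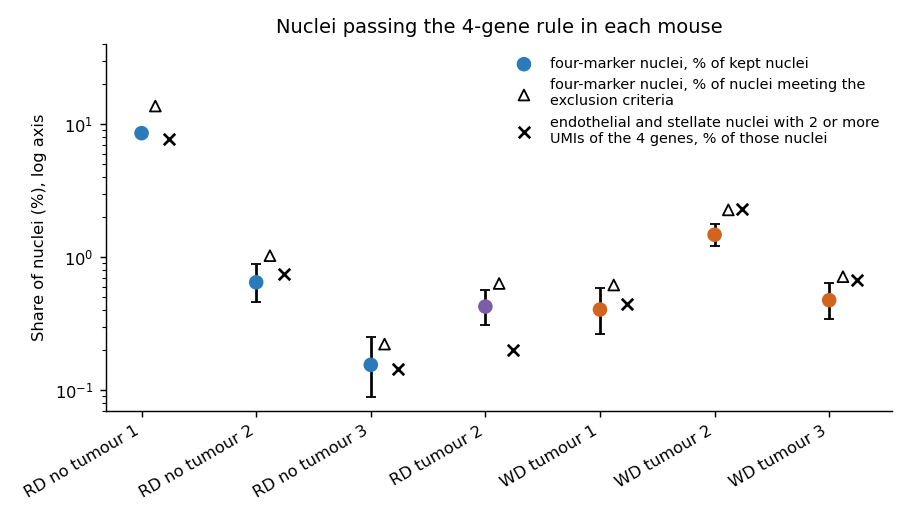
Share of nuclei passing the 4-gene rule in each of 7 mice (log axis). Filled points are shares of all nuclei with at least 300 genes, with exact 95% binomial intervals, open triangles are shares of nuclei that met the exclusion criteria, and crosses are the shares of endothelial and stellate nuclei with 2 or more UMIs of the 4 genes; RD no tumour 1 stands highest on all 3 measures, at 8.54%, 13.7% and 7.70%.

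Summed over mice, the ratio to that background was larger when more UMIs were asked for. At 3 or more UMIs of the 4 genes, 1.60% of nuclei meeting the exclusion criteria passed against 0.698% of endothelial and stellate nuclei, and at 5 or more 0.884% against 0.279%, a ratio of 3.17. In the 6 mice other than RD no tumour 1 the ratios were 1.81 at 3 or more and 3.04 at 5 or more UMIs. Single mice did not all follow this order. At 2, 3 and 5 UMIs the ratio was 1.39, 1.92 and 0.959 in WD tumour 1, 1.05, 0.903 and 2.56 in WD tumour 3 and 1.37, 2.71 and 2.22 in RD no tumour 2, each resting on 1 to 7 endothelial and stellate nuclei. WD tumour 2 did follow it, with 0.990, 1.62 and 5.86, resting on 22, 7 and 1 such nuclei. The background differed between the 4 genes. In RD no tumour 1, Chil3 was seen in 86.2% of the chosen nuclei and in 25.8% of endothelial and stellate nuclei, against 33.2% and 3.89% for Ccr2, 25.2% and 1.60% for F13a1 and 25.8% and 7.77% for Ly6c2. In WD tumour 2, Chil3 reached 5.50% of endothelial and stellate nuclei, and in the other 5 mice 0.145 to 0.994%. For every 100 Chil3 UMIs in RD no tumour 1 there were 32.5 UMIs of F13a1 and 22.0 of Ccr2 in the chosen nuclei, but 10.1 and 12.8 in endothelial and stellate nuclei. Ly6c2 went the other way, with 9.84 against 20.1.

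The 4 genes themselves were carried in different proportions by different mice. Ccr2 was present in 33.2% of the chosen nuclei of RD no tumour 1 but in 92.3%, 81.3%, 63.6%, 73.1%, 59.6% and 61.9% of those of RD no tumour 2, RD no tumour 3, RD tumour 2, WD tumour 1, WD tumour 2 and WD tumour 3. Ccr2 summed to 303 CPM in RD no tumour 1 and to 448 to 1016 CPM in the other 6 mice. F13a1 ranged from 76.7 CPM in RD no tumour 2 to 769 CPM in WD tumour 3 and 751 CPM in WD tumour 2. Chil3 was highest in RD no tumour 1 at 1375 CPM, followed by WD tumour 3 at 1030 CPM, and lowest in WD tumour 1 at 226 CPM. Ly6c2 had the lowest CPM of the 4 in all 7 mice, with 211 CPM in WD tumour 1 as its highest value. The 16 nuclei of RD no tumour 3 held no Ly6c2 UMI.

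Nuclei with several of the 4 genes made up 47.8% of the set (549), and the gene that admitted the others depended on the mouse. In RD no tumour 1, 364 nuclei (41.5%) qualified through Chil3 alone and 38 (4.33%) through Ccr2 alone, while 452 (51.5%) carried several of the genes. In the other 6 mice together, 109 of 271 (40.2%) qualified through Ccr2 alone, 27 (9.96%) through Chil3 alone, 28 (10.3%) through F13a1 alone and 10 (3.69%) through Ly6c2 alone, and 97 (35.8%) carried several. Ccr2 alone accounted for 76.9% in RD no tumour 2, 50% in RD no tumour 3, 36.4% in RD tumour 2, 53.8% in WD tumour 1, 24.04% in WD tumour 2 and 38.1% in WD tumour 3.

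**Figure D2:**
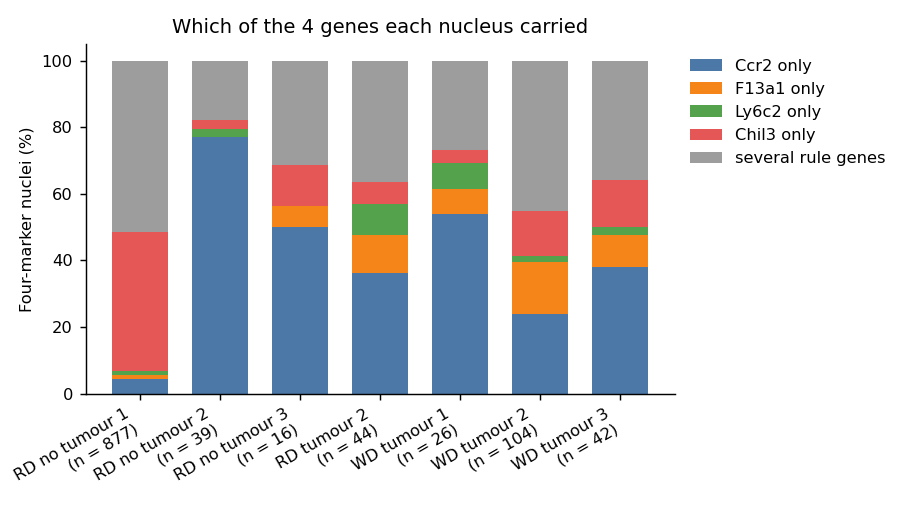
Percentage of the chosen nuclei of each mouse that carried UMIs of 1 of the 4 genes only, or of several (stacked bars, numbers of nuclei under each bar). The Chil3-only segment is 41.5% in RD no tumour 1 and at most 14.3% in the other mice, where Ccr2-only nuclei make up 24.04 to 76.9%.

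The nuclei admitted by different genes also differed in genes that the rule did not use, given as a description. Since 364 of the 391 Chil3-only nuclei came from RD no tumour 1 and 109 of the 147 Ccr2-only nuclei from the other 6 mice, the shares are given separately. In RD no tumour 1, 61.8% of the Chil3-only nuclei carried S100a9, 52.7% S100a8, 45.1% Ngp, 37.4% Camp and 36.3% Ltf, all genes of neutrophil granules or of the calprotectin that neutrophils and monocytes hold in bulk. In the 38 Ccr2-only nuclei of that mouse the shares were 34.2%, 26.3%, 21.1%, 18.4% and 10.5%. In the other 6 mice they were 33.3%, 25.9%, 33.3%, 25.9% and 22.2% of the 27 Chil3-only nuclei, and 7.34%, 1.83%, 0.917%, 1.83% and 0% of the 109 Ccr2-only nuclei. The Chil3-only nuclei were thus higher for these 5 genes in both sets, and both kinds were higher in RD no tumour 1. In that mouse all other nuclei carried S100a9 in 35.8% and S100a8 in 29.1%. The Ccr2-only shares there were not above this level for these 2 genes.

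Compared with the Chil3-only nuclei, the Ccr2-only nuclei more often carried Cd74, the invariant chain of MHC class II, the macrophage receptor Adgre1 and the CSF1 receptor Csf1r. In RD no tumour 1 these were in 42.1%, 36.8% and 42.1% of them, against 17.3%, 11.3% and 19.0% of the Chil3-only nuclei. In the other 6 mice the shares were 48.6%, 46.8% and 40.4% against 14.8%, 11.1% and 11.1%. All other nuclei of RD no tumour 1, Kupffer nuclei among them, carried Adgre1 in 18.2% and Csf1r in 20.2%. The Chil3-only shares of that mouse were not above these. Nuclei with several of the 4 genes had the highest share with Lyz2, the lysozyme of myeloid cells. It was 78.5% in RD no tumour 1, where all other nuclei had 47.3%, and 67.0% in the other 6 mice. Nuclei with several of the genes also had the highest share with Vcan, a proteoglycan typical of classical monocytes, at 29.0% and 18.6%. Skap1, an adaptor of T cells, was in 27.3% of the 11 Ly6c2-only nuclei of RD no tumour 1 and in 40% of the 10 in the other mice. The list of T and NK cell markers summed to 1987 CPM in the Ly6c2-only nuclei of the other 6 mice and to 132 to 512 CPM in the other 4 kinds. The order was different in RD no tumour 1, with 687 CPM in the Ly6c2-only and 1068 CPM in the 12 F13a1-only nuclei. Median depth ranged from 1505.5 to 3469 UMIs over the 5 kinds in RD no tumour 1 and from 902 to 2081 in the other 6 mice, with the Chil3-only nuclei lowest in both.

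Whether the label of monocyte nuclei holds was examined with genes outside the rule, by the number of UMIs of the 4 genes among nuclei that met the exclusion criteria. In the 6 mice other than RD no tumour 1, Csf1r was present in 7.13% of nuclei with 0 UMIs, 16.2% with 1, 22.7% with 2, 42.3% with 3, 50% with 4 and 47.1% with 5 or more. Lyz2 was present in 16.7%, 27.7%, 35.3%, 42.3%, 50% and 83.8% of the same nuclei. Mean depth did not follow this order, at 2455, 2290, 2307, 3354, 2286 and 2613 UMIs. In RD no tumour 1 the corresponding shares were 15.4%, 14.0%, 19.3%, 26.8%, 32.4% and 30.2% for Csf1r, and 44.5%, 45.4%, 57.7%, 66.1%, 83.8% and 90.3% for Lyz2. Nuclei just inside the threshold, with 2 UMIs (523 over the 7 mice), thus lay closer to those just outside it, with 1 UMI (2534), than to those with 5 or more (346). Csf3r, the receptor for the granulocyte growth factor, was present in 2.64%, 6.59%, 10.9%, 15.4%, 12.5% and 27.9% of these nuclei in the 6 mice, lower at 4 than at 3 UMIs.

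**Figure D3:**
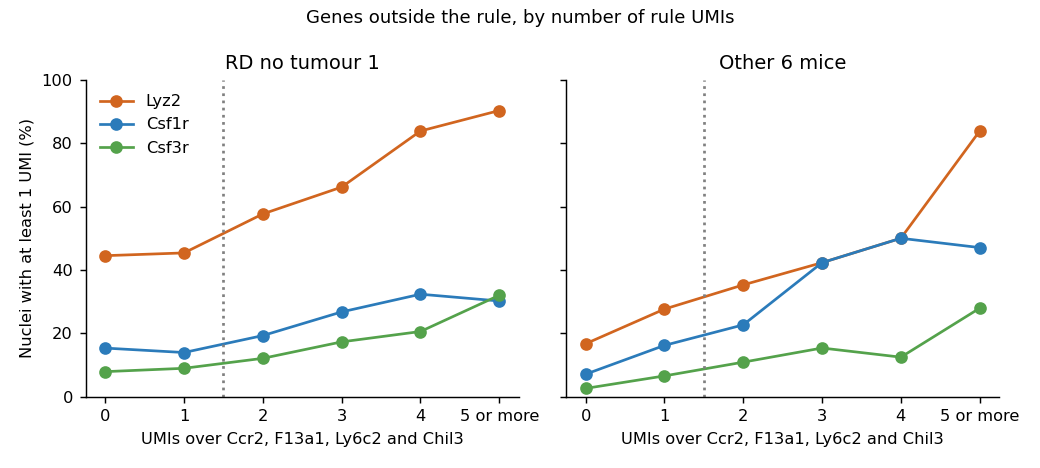
Percentage of nuclei with at least 1 UMI of Lyz2, Csf1r or Csf3r against the number of UMIs over the 4 rule genes, in RD no tumour 1 (left) and the other 6 mice (right); the dotted line marks the threshold of the rule. In the 6 mice, Lyz2 goes from 16.7% of nuclei at 0 UMIs to 83.8% at 5 or more, and Csf1r from 7.13% to 47.1%.

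Markers of other cell types in the chosen nuclei were measured next. The 16 neutrophil markers summed to 4983 CPM in RD no tumour 1 and to 755 to 1372 CPM in the other 6 mice, and 97.6% of the chosen nuclei of RD no tumour 1 held at least 2 such UMIs, against 74.0% in WD tumour 2 and 14.3 to 50% in the other 5 mice. Of all other nuclei 94.8% did so in RD no tumour 1 and 77.7% in WD tumour 2, so this count did not set the chosen nuclei of these 2 mice apart. The same list summed to 2573 CPM in all other nuclei of RD no tumour 1, 1063 CPM in those of WD tumour 2 and 136 to 362 CPM in the other mice. Ly6g, a surface antigen specific to neutrophils, was at 0 UMIs in the chosen nuclei of 5 mice and numbered 22 UMIs in RD no tumour 1, with a single UMI in RD tumour 2. One UMI was worth 0.494 CPM in RD no tumour 1, 9.70 CPM in RD tumour 2 and 3.32 to 25.6 CPM in the 5 mice without any. These Ly6g counts therefore do not tell the mice apart. Nuclei with Mpo or Elane RNA had been removed by the rule: of the 1425 nuclei of RD no tumour 1 with 2 or more UMIs of the 4 genes, 132 carried Mpo and 139 carried Elane. The other mice had far fewer such nuclei, 27 to 184 each. Their highest counts were 5 with Mpo and 4 with Elane, both among the 184 of WD tumour 2. Dendritic cell markers summed to 896 to 2599 CPM (other nuclei 587 to 1241 CPM) and T and NK cell markers to 239 to 699 CPM (other nuclei 90.1 to 224 CPM). The 14 hepatocyte markers summed to 35847 to 45380 CPM in the chosen nuclei and 34738 to 48577 CPM in all other nuclei, so hepatocyte RNA was as abundant in both. The part that other cell types or free RNA have in the results below was not tested. Given these values, the name of monocyte nuclei is borne out in part only, and the set is called four-marker nuclei from here on.

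The four-marker nuclei were next described against all other nuclei of the same mouse. Of 13400 genes with at least 10 UMIs, 831 (6.2%) were above the other nuclei in 7 of 7 mice. The leading gene was Gpr141, an orphan receptor of myeloid cells, with a mean log2 ratio of 3.40 ± 0.785 (SD, n = 7 mice, 10 CPM added). It stood at 203, 85.2 and 153 CPM in RD no tumour 1 to 3, 126 CPM in RD tumour 2 and 106, 206 and 440 CPM in WD tumour 1 to 3, against 2.49 to 28.2 CPM in all other nuclei and 0.849 to 9.54 CPM in Kupffer nuclei. Lyz2 followed with a mean log2 ratio of 2.87 ± 1.09 and 1134, 435, 588, 563, 769, 505 and 2830 CPM in the same order of mice, against 25.4 to 277 CPM in other nuclei. WD tumour 3 was the highest mouse for both genes. Ptprc, the pan-leukocyte phosphatase CD45, ranged from 678 to 1470 CPM (other nuclei 108 to 476 CPM), Cybb, the catalytic subunit of the phagocyte oxidase, from 204 to 797 CPM (30.5 to 166 CPM), and Dock2, an activator of Rac in leukocytes, from 378 to 852 CPM (56.9 to 189 CPM). The ranges of the four-marker nuclei and of other nuclei did not overlap for these 5 genes. Kupffer nuclei, however, overlapped the four-marker nuclei for Ptprc (398 to 986 CPM), Cybb (133 to 361 CPM) and Dock2 (256 to 442 CPM). For Lyz2 they did not, at 125 to 317 CPM. The 20 leading named genes also held Atp8b4, Fam129a, St8sia4, Mctp1, Trps1, Myo1f, Tg, Tm6sf1, Klra2, Apbb1ip, Oprm1, Arhgap15, Trerf1, Cd244a and H2-Ab1. Among these further genes, Kupffer nuclei stayed below the four-marker nuclei for St8sia4 (19.7 to 71.9 CPM), Mctp1 (10.2 to 31.3 CPM) and Arhgap15 (346 to 663 CPM) only. They overlapped for the rest, for example Klra2, at 147 to 472 CPM against 181 to 605 CPM in four-marker nuclei.

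**Figure D4:**
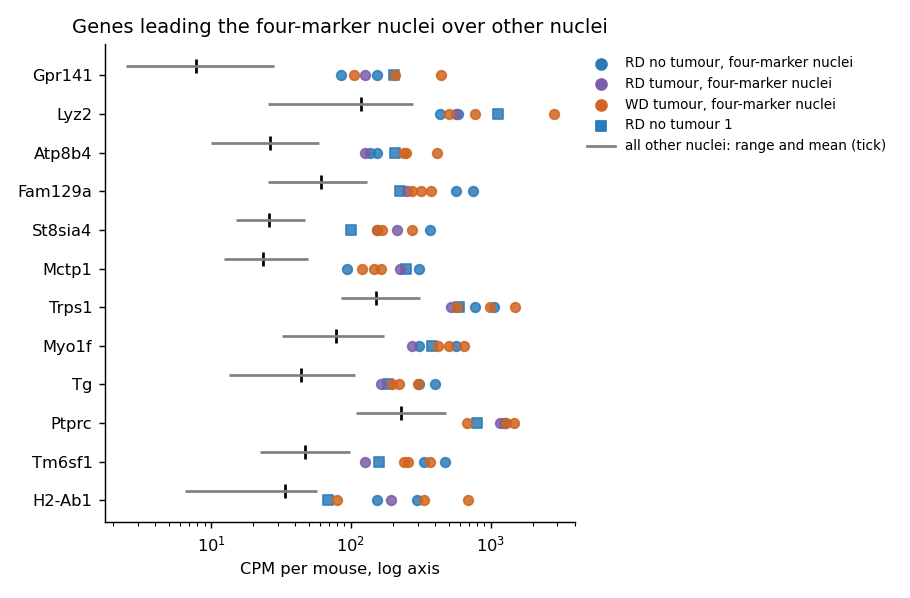
CPM of the 12 leading named genes in the four-marker nuclei of each mouse (points coloured by group, RD no tumour 1 as a square) and the range and mean over the 7 mice of all other nuclei (grey line and tick), on a log axis. Gpr141 lies at 85.2 to 440 CPM in the four-marker nuclei and at 2.49 to 28.2 CPM in other nuclei.

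Gene lists chosen for this tissue described the profile further. Of 29 classical monocyte genes outside the rule, 13 were above other nuclei in all 7 mice, beside 6.2% of all genes. They included the integrin Itgam (45.2 to 342 CPM, against 3.75 to 115 CPM in other nuclei), Ms4a4c (34.1 to 153 against 2.90 to 15.7 CPM), Ms4a6c (116 to 440 against 21.7 to 99.4 CPM) and Csf1r (126 to 352 against 32.3 to 123 CPM). Csf1r did not set the set apart from Kupffer nuclei. These held 433, 281 and 246 CPM in RD no tumour 1 to 3, against 154, 264 and 179 CPM in four-marker nuclei. In RD tumour 2, WD tumour 1 and WD tumour 2 they held 188, 235 and 336 CPM, against 126, 136 and 352 CPM. Vcan was above other nuclei in 6 mice, at 189, 25.6, 153, 48.5, 123 and 179 CPM in RD no tumour 1 to 3, RD tumour 2, WD tumour 2 and WD tumour 3, and had 0 UMIs in WD tumour 1. Fn1 and Hp, which are on the list but are also transcribed by hepatocytes, made up much of its sum: Fn1 was at 315 to 1096 CPM in four-marker nuclei and 508 to 992 CPM in other nuclei.

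Of 20 patrolling monocyte genes, 8 were above other nuclei in all 7 mice, among them the adhesion receptor Adgre4 (136 to 520 against 38.7 to 171 CPM) and the integrin chain Itgal (75.4 to 316 against 13.2 to 68.9 CPM). Nr4a1, the transcription factor that patrolling monocytes depend on, was above other nuclei in 7 mice at low levels, 17.0 to 82.4 CPM against 4.65 to 28.7 CPM. The same held for 9 of 19 chemokine receptor and adhesion genes, including the integrin chain Itga4 (121 to 665 against 44.8 to 123 CPM). Above other nuclei in all 7 mice were 10 of 26 myeloid transcription factors: Zeb2 at 1258 to 2893 against 307 to 1075 CPM, Spi1, which encodes PU.1, at 107 to 290 against 21.3 to 122 CPM, and Runx1, Ikzf1, Irf5, Irf8, Fli1, Etv6, Bach2 and Nr4a1. So were 7 of 18 immune checkpoint and suppressive genes, among them Pirb, Sirpa, Lilrb4a and Vsir.

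Genes of antigen presentation stood out in some mice. Above other nuclei in all 7 mice were 8 of 14 measured MHC class II presentation genes, including Ciita, the master regulator of the class II genes. Summed over the list, the four-marker nuclei held 777, 1875 and 818 CPM in RD no tumour 1 to 3, 1416 CPM in RD tumour 2 and 2035, 1076 and 3832 CPM in WD tumour 1 to 3. Other nuclei held 108 to 475 CPM and Kupffer nuclei 483 to 1294 CPM. WD tumour 3 had the highest sum and the RD no tumour mice overlapped the WD tumour mice.

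Lists of mature macrophage genes were near the 6.2% of all genes in this count, and the rule itself removed nuclei with Clec4f, Timd4 or Gpnmb. Of 21 measured lipid-associated macrophage genes, only Tyrobp was above other nuclei in all 7 mice, and Trem2, the receptor that marks that state, had 0 UMIs in 3 mice and at most 46.5 CPM in the others. Of 18 Kupffer cell genes outside the rule, 1 (Ptprj) was above other nuclei in all 7 mice, and the list summed to 1764 to 3126 CPM against 4558 to 6438 CPM in Kupffer nuclei. Of 24 monocyte-to-macrophage differentiation genes and 27 measured interferon-stimulated genes, 1 each met this count (Csf1r and Sp100), and of 28 lipid handling genes none did. Of the endothelial and stellate markers, 6 of 13 and 7 of 11 were below other nuclei in all 7 mice, which the limits on Stab2 and Reln in the rule favour, so nothing is read from it. The proliferation list summed to 457, 588 and 555 CPM in RD no tumour 1, WD tumour 1 and WD tumour 2 and to 13.7 to 230 CPM in the other 4 mice. Top2a, a topoisomerase of dividing cells, had 178, 10 and 18 UMIs in these 3 mice and 1 UMI in the other 4 together.

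The genes leading within single mice differed. In RD no tumour 1 they were Cpa6, Vcan, Abca13 and Ltf, with 413, 189, 163 and 334 CPM in four-marker nuclei against 34.9, 17.4, 17.2 and 48.2 CPM in other nuclei. In RD tumour 2 they began with Ltf (252 against 5.49 CPM) and Camp (145 against 6.27 CPM), carried by 26 and 15 UMIs. WD tumour 3 was led by Gpr141 and Lyz2, and WD tumour 2 by Gpr141 and Vcan. The plasmacytoid dendritic marker Siglech had 14 UMIs in WD tumour 2, at most 4 in any other mouse and none in 3 of them.

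Western diet with tumours was compared with diet reversal without tumours, first in the share of nuclei. Diet and tumour both differ between these groups and cannot be told apart. The share was 0.783 ± 0.598% in WD tumour (SD, n = 3) and 3.11 ± 4.70% in RD no tumour (SD, n = 3), a difference in mean log2 share of -0.53. The exact two-sided permutation test over mice gave p = 0.8, where 0.1 is the smallest p that 3 against 3 mice allow. Tumour-bearing mice (0.693 ± 0.520%, SD, n = 4, RD tumour 2 included) differed from tumour-free mice by -0.69 on the log2 scale, with an exact permutation p of 0.686 (smallest possible 0.0571). In the tumour-bearing group 3 mice stayed on Western diet, and all tumour-free mice had been switched to chow. Diet and tumour are therefore not separated here either. Benjamini-Hochberg adjustment over these 2 comparisons gave 0.8 for each. Both directions rested on RD no tumour 1: without it the differences were 1.05 and 0.90 on the log2 scale, with exact permutation p = 0.6 and p = 0.533. The differences were 0.76 and 0.82 when nuclei with 2 or more UMIs of neutrophil or granulocyte progenitor markers were left out, a choice made after seeing the data. This filter keeps 17 of the 877 nuclei of RD no tumour 1. Most other nuclei of that mouse also held 2 or more neutrophil marker UMIs. The filter thus nearly empties that mouse whatever the cell type, and nothing separate is read from it.

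Gene levels in the four-marker nuclei were then compared between the same 3 and 3 mice with edgeR's quasi-likelihood test on counts summed per mouse. No gene of 2255 tested passed an adjusted p of 0.05 (0.0%), the lowest being 0.205 for Nnmt. At an unadjusted p under 0.05 there were 50 genes (2.22%), 22 higher (0.976%) and 28 lower (1.24%) in WD tumour. Without RD no tumour 1 there were 46 of 1936 (2.38%). DESeq2, run as an alternative, called 3 genes, of which 1 was higher (Apoa4) and 2 lower (Nnmt and Slco1a1). The WD tumour and RD no tumour mice overlapped for most genes: the 3 WD tumour mice were all above the 3 RD no tumour mice for 106 genes (4.7%) and all below for 64 (2.84%). By chance alone, 3 mice lie wholly above or below 3 others with a probability of 0.1, so 7.54% is not above chance. Of these 170 genes (7.54%), 32 showed the same separation in all other nuclei and 153 the same direction of the group means there. Such counts in other nuclei were not made over all tested genes, so nothing is read from them.

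The genes with the lowest p are known from hepatocytes, and their group means differed in the same direction in the other nuclei. Nnmt, which methylates nicotinamide and is abundant in hepatocytes, stood at 30.1, 53.2 and 54.9 CPM in WD tumour 1 to 3, against 271, 307 and 179 CPM in RD no tumour 1 to 3, with 427 CPM in RD tumour 2. The groups did not overlap in CPM. The values rested on 2, 16 and 4 UMIs in WD tumour and on 550, 36 and 7 UMIs in RD no tumour. The log2 difference was -2.48 (SE 0.386) in four-marker nuclei, and all other nuclei held 91.2 CPM in WD tumour against 323 CPM in RD no tumour, also without overlap. Slco1a1, a bile acid and organic anion transporter of hepatocytes, had 30.1, 39.9 and 27.5 CPM in WD tumour against 221, 111 and 358 CPM in RD no tumour (log2 difference -2.65, SE 0.510, edgeR adjusted p = 0.513). The WD tumour values rested on 2, 12 and 2 UMIs. In RD tumour 2 Slco1a1 was at 107 CPM, between the 2 groups. Its level in other nuclei was 128 and 331 CPM. Apoa4, an apolipoprotein induced in fatty liver, was at 362, 668 and 577 CPM in WD tumour against 131, 34.1 and 153 CPM in RD no tumour, with 155 CPM in RD tumour 2 (log2 difference 2.30, SE 0.521, edgeR adjusted p = 0.795). In other nuclei it was at 465 and 168 CPM, with no overlap.

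Further genes with separated mice were Kynu, Insig2, Ggact, Serpina3k, Camk2b, Gucd1, Dennd5b and Serpina1e, with log2 differences from -2.32 (Serpina1e, a hepatocyte protease inhibitor) to -0.90 (Camk2b). Among the genes higher in all 3 WD tumour mice were Cttnbp2nl, Enox2, Rgl1, Eea1, Dapk1, Itga9, Ahcyl2 and Phactr2, with log2 differences from 0.85 (Ahcyl2) to 1.33 (Rgl1). Their edgeR adjusted p was 0.999 each. Eea1, an early endosome tether, was at 151, 136 and 192 CPM in WD tumour against 66.1, 93.7 and 51.1 CPM in RD no tumour. The value of RD no tumour 3 rested on 2 UMIs. In the other nuclei of the same mice Eea1 did not overlap between the groups either.

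**Figure D5:**
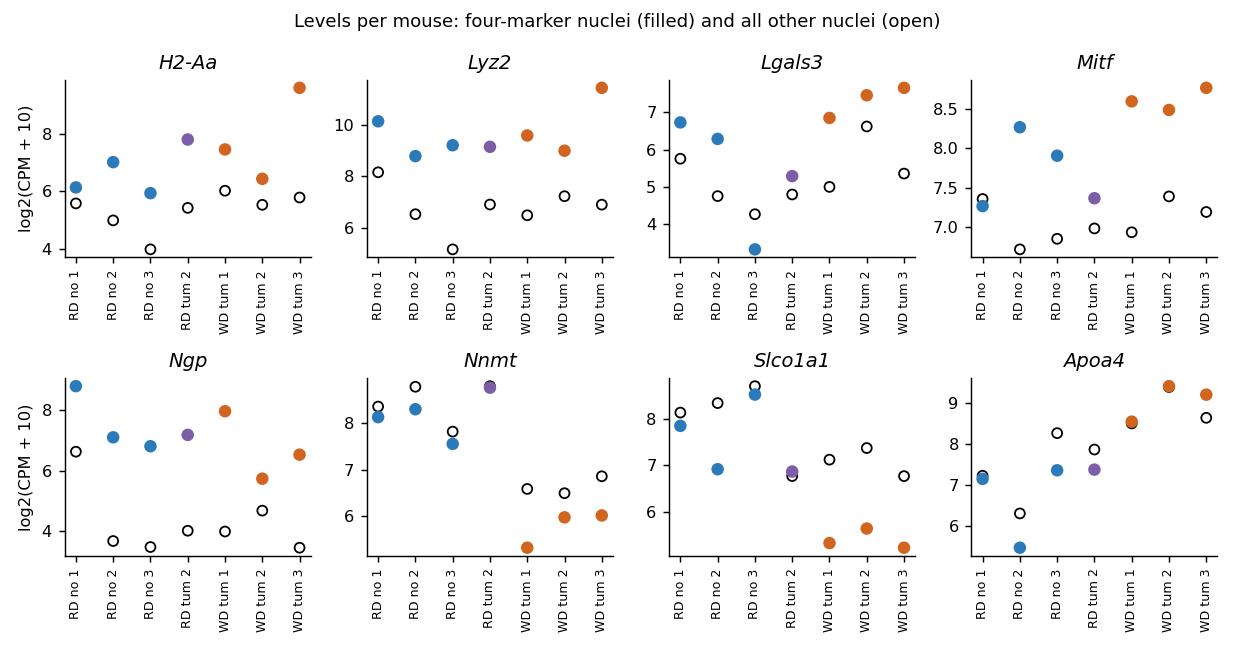
Levels of 8 genes in each mouse, as log2(CPM + 10), in four-marker nuclei (filled, coloured by group) and in all other nuclei (open circles). Nnmt, Slco1a1 and Apoa4 separate the WD tumour from the RD no tumour mice in both kinds of nuclei, whereas H2-Aa, Lyz2 and Ngp overlap between the groups.

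Among the listed genes, those of MHC class II presentation had the largest median difference of the lists with at least 5 tested genes, beside the neutrophil markers. All 5 tested were higher on average in WD tumour, with a median log2 difference of 1.10 beside 0.02 over all genes tested, of which 52.8% were higher and 47.2% lower. H2-Aa, a class II alpha chain, was at 166, 76.4 and 769 CPM in WD tumour against 60.2, 119 and 51.1 CPM in RD no tumour, with 213 CPM in RD tumour 2. WD tumour 3 was far above the rest and the groups overlapped (log2 difference 2.01, SE 0.802, edgeR adjusted p = 0.999). Cd74 was at 603, 140 and 907 CPM against 135, 358 and 153 CPM, and H2-Ab1 at 332, 79.7 and 687 CPM against 68.1, 298 and 153 CPM. In other nuclei H2-Aa, Cd74 and H2-Ab1 were also higher on average in WD tumour, at 45.3, 89.4 and 46.3 CPM against 21.7, 46.4 and 22.2 CPM. Without RD no tumour 1 the median of the list was 0.58.

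The 5 tested neutrophil markers were all lower on average in WD tumour, with a median log2 difference of -1.31, and this rested on RD no tumour 1, without which the median of the 3 still tested was -0.03. Ngp, a neutrophil granule protein, was at 241, 43.2 and 82.4 CPM in WD tumour against 437, 128 and 102 CPM in RD no tumour. Lcn2, an iron-scavenging protein that hepatocytes and neutrophils make in the acute phase, was at 106, 827 and 68.7 CPM against 2149, 247 and 537 CPM. Ltf was at 181, 6.64 and 96.2 CPM against 334, 162 and 0 CPM. None separated the groups.

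Of 8 tested lipid-associated macrophage genes, 5 were higher in WD tumour, with a median log2 difference of 0.40. Lgals3, which encodes galectin-3, was at 106, 166 and 192 CPM in WD tumour against 96.3, 68.2 and 0 CPM in RD no tumour, and Mitf, a regulator of lysosomal genes, at 377, 349 and 426 CPM against 144, 298 and 230 CPM. Both separated the 3 and 3 mice, with log2 differences of 0.97 (SE 0.524) and 0.81 (SE 0.359) and an edgeR adjusted p of 0.999. RD tumour 2 lay with the RD no tumour mice, at 29.1 CPM for Lgals3 and 155 CPM for Mitf. Ctsl, a lysosomal protease on the same list, was lower on average, at 399 ± 154 against 612 ± 285 CPM (SD, n = 3 each), and in other nuclei at 343 against 723 CPM. The median log2 fold change of lipid-associated macrophage genes was negative when 2 different rule genes were asked for (-1.05) and when nuclei with dendritic or T and NK cell RNA were left out (-0.50). Only 259 and 321 genes of all kinds passed the count filter under these 2 settings, against 2255 in the main fit. These medians cover only the list genes that still passed, so no reversal of the list is read from them.

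Of the 13 tested classical monocyte genes, 8 were higher and 5 lower in WD tumour, with a median log2 difference of 0.19, and none separated the groups. Lyz2 differed by 0.84 (SE 0.705), with 2830 CPM in WD tumour 3, and by -0.26 without that mouse. Cybb was at 497 ± 259 against 339 ± 121 CPM and Hp at 2334 ± 713 against 6142 ± 5127 CPM (SD, n = 3 each). For the 6 tested patrolling genes (Itgal, Rap1gap2 and Dusp16 had the largest differences) the median was 0.09. Of 15 differentiation genes, 12 were higher with a median of 0.14 (8 of 15 and 0.03 without RD no tumour 1). Ctsd, the lysosomal protease cathepsin D, separated the groups at 271, 213 and 247 CPM against 165, 111 and 51.1 CPM, beside C1qc and Tgfbr1, which overlapped. The Ctsd value of RD no tumour 3 rested on 2 UMIs.

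In the remaining lists the medians lay between 0.0031 and 0.33 where at least 3 genes were tested. Itgb2 (181, 120 and 206 against 106, 111 and 51.1 CPM) and Hif1a (106, 169 and 110 against 90.8, 25.6 and 25.6 CPM) were higher in all 3 WD tumour mice. Hif1a had only 3 and 1 UMIs in RD no tumour 2 and 3, and Itgb2 had 2 in RD no tumour 3. Cebpb, a transcription factor of both myeloid cells and hepatocytes, was lower in all 3 WD tumour mice (271, 140 and 234 against 295, 315 and 358 CPM). Without RD no tumour 1 the medians of the patrolling monocyte genes, the myeloid transcription factors and the dendritic cell markers were -0.0085, -0.02 and -0.35. For Lilrb4a and Sirpa, inhibitory receptors of myeloid cells, the means were 395 and 443 CPM in WD tumour against 198 and 264 CPM, with overlap. The chemokine ligands, cell cycle genes, T and NK cell markers, endothelial markers and cholangiocyte markers had no gene that passed the count filter. Only 13 of 29 classical monocyte genes, 8 of 22 lipid-associated macrophage genes and 5 of 15 MHC class II genes passed it, so these counts describe the more abundant members only.

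Finally, the diet and tumour contrast in four-marker nuclei was set against that in Kupffer nuclei of the same mice. These were 4163 nuclei with at least 2 UMIs over Clec4f, Timd4, Cd5l and Vsig4 and none of Ccr2, Ly6c2, Chil3, Gpnmb, Flt3, Mpo or Elane. With the mouse as a block, edgeR's quasi-likelihood test of the interaction called no gene of 11711 (0.0%), with 269 (2.3%) at an unadjusted p under 0.05, 111 higher (0.948%) and 158 lower (1.35%), while 46.8% of all tested genes had a positive difference. DESeq2 also called none (87 at an unadjusted p under 0.05). Msr1, a scavenger receptor of macrophages, was at 90.4, 326 and 192 CPM in four-marker nuclei of WD tumour and 73.5, 17.0 and 0 CPM in those of RD no tumour. These values rested on 6, 98 and 14 UMIs in WD tumour and on 149, 2 and 0 UMIs in RD no tumour. Kupffer nuclei held 392 and 340 CPM on average, and the interaction was 1.94 on the log2 scale (SE 0.511, edgeR adjusted p = 1.00). Camp, a neutrophil granule peptide, went the other way, with 43.8 against 174 CPM in four-marker nuclei and 13.5 against 22.1 CPM in Kupffer nuclei (interaction -2.15, SE 0.753). Soga1, Plcxd3, Dapk1 and Hgf on the positive side and Styx, Slc17a9, Gimap4 and Abcd2 on the negative side completed the named genes, and the RD no tumour mean in four-marker nuclei was at most 24.7 CPM for Soga1, Plcxd3 and Hgf. Without RD no tumour 1, 7 genes were called, of which Msr1 (3.54) was higher and Negr1, Camp, Grap2, Klra17 and Hsf3 were lower relative to Kupffer nuclei. In that fit the RD no tumour side of Msr1 in four-marker nuclei rested on 2 and 0 UMIs. Without WD tumour 2 there were 2 called genes, Sirpb1a and an unnamed gene.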

How the data were processed

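Single-nucleus libraries of mouse liver (Chromium 3' chemistry, version 3.1, per the labels) were analysed from the UMI counts per gene and barcode that the authors deposited; Cell Ranger 7.0.0 and build mm10 are per the submitters' processing notes, and further settings are not given in the sources used here. The rule was applied in 7 libraries without correction for free RNA. Doublets were not removed in the main analysis; an alternative removed the nuclei with the highest Scrublet scores (scanpy 1.11.5), up to 0.8% per 1000 barcodes. Counts were summed per mouse and tested with edgeR 4.0.16 (TMM, filterByExpr, quasi-likelihood F test, Benjamini-Hochberg over all genes tested, threshold 0.05), leaving out the rule genes. Mice are the replicates, and RD no tumour 3 rests on 16 nuclei. The script was tested on simulated data. Shares were tested by exact permutation of mean log2 shares (scipy 1.17.1). Alternatives included DESeq2 1.42.0, other thresholds of the rule, thinned nuclei and each mouse left out. The text names, from each of 24 lists, the 3 tested genes with the largest change among those averaging at least 20 CPM, the 10 lowest p in each direction with separated mice (5 for the interaction), and the 20 leading genes with at least 50 CPM in every mouse; symbols that begin with Gm or end in Rik are counted, not named. Other genes and examples were chosen after their values were seen. The members and lists were chosen with earlier results of these data known. Results for some genes under this rule are not reported here.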

Additional observations from a re-analysis of the deposited data

Results flagged for a closer look

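Among the 4 tumour-bearing mice, the share of four-marker nuclei in WD tumour 2, 1.471% of nuclei, stood far from the other 3 (0.403 to 0.473%): its gap to the next mouse was 0.934 of the whole range, above Dixon's 95% critical value for 4 samples. Endothelial and stellate nuclei of this mouse carried 2 or more UMIs of the 4 genes in 2.28%, against 0.199 to 0.675% in the other 3 tumour-bearing mice. Of 6 such checks made on shares in these mice, this was the 1 that passed, and chance alone flags about 1 in 20 groups.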

How the results depend on the processing

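Results rest on 16 to 104 nuclei per mouse outside RD no tumour 1, on 3 mice per group, and on counts that include free RNA. The labels' replicate numbers did not pair the mice (correlations of deviations -0.088, -0.12 and -0.053). With a replicate block, 0 genes were called and the share difference was -0.53 (exact p = 1.0). Other settings gave 0 called genes in four-marker nuclei, except DESeq2 with 3 and no count filter with 22, 4 of which had at most 3 UMIs in 1 group. The interaction gave 0, except 1 with 2 different rule genes. Leaving out 1 mouse gave 0 to 0 called genes, 0 to 7 for the interaction (7 without RD no tumour 1, 2 without WD tumour 2), and share differences of -1.84 to 1.05 and, for tumour-bearing mice, -1.998 to 0.90. Without nuclei holding granule RNA, a filter that keeps only 17 nuclei of RD no tumour 1, these share differences were 0.76 and 0.82. Of 1141 alternative values for 72 named genes, 1097 kept direction and side of the threshold. Uncalled genes changed sign as follows, with log2 ranges over the mice left out: Lyz2 -0.26 to 1.43, Cybb -0.072 to 0.73, Rap1gap2 -0.044 to 0.78, Dusp16 -1.16 to 0.052, Lrp1 -0.11 to 0.24, Nfkbiz -0.59 to 0.85, Ppara -0.24 to 1.24, Acsl1 -1.10 to 0.78, Fcer1g -0.37 to 1.14, Cadm1 -0.46 to 0.87, Runx2 -0.80 to 0.26, Bank1 -0.32 to 0.80, Calr -0.21 to 1.60, Fgb -1.63 to 0.035 and, for the interaction, Camp -4.12 to 0.24. Under other settings the log2 fold change of Lrp1 was -0.023 with 3 UMIs, -0.013 with 2 rule genes, -0.029 without doublets, -0.0043 without Chil3 in the rule and -0.50 without granule RNA. The log2 fold change of Dusp16 was 0.0053 and the log2 fold change of Fcer1g was -0.030 without Chil3 in the rule. The log2 fold change of Runx2 was 0.065 and the log2 fold change of Bank1 was -0.12 at 5% mitochondrial UMIs or less, and Runx2 gave 0.012 without a count filter. The log2 fold change of Cybb was -0.39 without dendritic or T and NK RNA, the log2 fold change of Acsl1 was -0.10 with the replicate block, the log2 fold change of Cdk6 was -0.081 with 3 UMIs, and the interaction of Camp was 5.79 without granule RNA. Leaving Chil3 out of the rule and leaving out granule RNA were chosen after seeing the data. The cause of these changes was not tested.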

Other observations

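The library outside the rule, RD tumour 1 (20000 barcodes), was read with the same criteria for its values alone. In it 1385 nuclei (6.93%) passed, of which 95.8% carried Chil3, 24.9% F13a1, 16.2% Ly6c2 and 2.74% Ccr2, while 46.1% carried Lyz2 and 20.5% Csf1r.

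The acute phase genes Saa1 and Saa2 stood at 12441 and 11880 CPM in the four-marker nuclei of RD no tumour 1. In the other 6 mice Saa1 was at 90.4 to 1227 CPM and Saa2 at 15.1 to 613 CPM. RD no tumour 1 was thus the highest mouse for Saa1, Saa2, the summed neutrophil markers and Chil3 in four-marker nuclei. Saa1 and Saa2 were chosen after their values were seen.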
